A study of Mus musculus with 4 samples.

Results

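Genes of protein entry into the endoplasmic reticulum (ER), signal peptide cleavage and the first steps of N-glycosylation were examined in mouse beta cells sorted by CD63 expression. The set was a list of 39 gene symbols chosen for these roles, and every symbol was found in the deposited count tables among 31017 gene names. All 39 also passed the filter on low counts that left 13241 genes for testing. They fell into 7 role groups, namely the signal recognition particle (SRP) and its receptor with 8 genes, the Sec61 channel and its partners with 7, and the translocon-associated protein (TRAP) complex with 4. The others were signal peptidase with 5, oligosaccharyltransferase with 9, assembly of the sugar precursor with 4 and trimming of glucose from the attached glycan with 2. RNA-seq libraries numbered 2 from the CD63 high sort and 2 from the CD63 low sort, and the CD63 high libraries were set against the CD63 low ones. Cells of both sorts came from pancreatic islets of wild-type C57BL/6J males aged 10 weeks, were cultured overnight as whole islets and were then dissociated and sorted by flow cytometry. CD63 is a tetraspanin of secretory granule, lysosome and plasma membranes. The labels call the sorted cells beta cells but do not say whether the libraries of a group came from separate animals or sorts, so the p-values rest on a spread between libraries that may be technical.

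A beta cell makes preproinsulin in very large amounts, and each chain has to cross the ER membrane before it can fold. SRP binds the signal peptide as it leaves the ribosome, the SRP receptor docks the ribosome at the membrane, and the chain passes through the Sec61 channel, with TRAP helping weakly gating signal peptides such as that of preproinsulin. Signal peptidase then removes the signal peptide, and oligosaccharyltransferase moves a preassembled sugar tree from the lipid dolichol to asparagine residues of passing proteins, whose outer glucose residues are afterwards trimmed by glucosidases. Insulin itself carries no N-glycan, but many granule proteins, receptors and transporters of the beta cell do.

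Many of these genes are known targets of the unfolded protein response, whose factors bind short promoter elements, and the promoters of 3 genes are shown for that reason. Krtcap2 had the largest fold change of the set, Ddost the highest level per length and Srpr the highest level of its role group. The sequences are those of RefSeq on GRCm38.p6, 250 bases before to 50 after the start site, 5′ to 3′ on the gene's strand. Capitals mark matches on either strand to the ER stress response element II (ERSE-II, ATTGGNCCACG), to TGACGTG, to the CCAAT box and to the word CCACG. The windows are chr3:89246223-89246522 for Krtcap2, chr4:138304488-138304787 for Ddost and chr9:35210953-35211252 for Srpr, all on the + strand.
Krtcap2: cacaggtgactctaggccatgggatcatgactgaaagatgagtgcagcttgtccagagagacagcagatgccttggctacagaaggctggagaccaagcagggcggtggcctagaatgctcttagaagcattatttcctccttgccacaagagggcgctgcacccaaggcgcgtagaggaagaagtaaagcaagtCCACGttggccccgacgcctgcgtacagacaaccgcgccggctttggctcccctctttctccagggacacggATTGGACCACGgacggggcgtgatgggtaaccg
Ddost: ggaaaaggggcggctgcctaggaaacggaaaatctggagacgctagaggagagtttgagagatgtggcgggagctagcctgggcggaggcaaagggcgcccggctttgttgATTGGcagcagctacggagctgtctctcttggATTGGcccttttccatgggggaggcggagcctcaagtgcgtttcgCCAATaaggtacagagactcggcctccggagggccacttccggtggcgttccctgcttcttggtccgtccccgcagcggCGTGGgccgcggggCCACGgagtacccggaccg
Srpr: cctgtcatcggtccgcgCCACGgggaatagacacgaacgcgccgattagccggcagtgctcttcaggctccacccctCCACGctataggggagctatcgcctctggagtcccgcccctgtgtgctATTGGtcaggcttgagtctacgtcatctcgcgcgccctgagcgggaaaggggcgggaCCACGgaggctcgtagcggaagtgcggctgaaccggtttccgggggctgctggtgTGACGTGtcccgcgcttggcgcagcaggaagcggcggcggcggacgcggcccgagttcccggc
The Krtcap2 window held an ERSE-II match that began at position 18, counted from 1 at the start site, and a further CCACG 55 bases before the start. RefSeq lists 2 windows for Krtcap2, and the one shown is that with the match. The Ddost window held 3 CCAAT matches, 139, 107 and 62 bases before the start, and CCACG matches at positions 18 and 32. The Srpr window held TGACGTG 13 bases and CCAAT 125 bases before the start, with CCACG matches 233, 173 and 68 bases before it. All 3 windows shown held matches, whereas some others, among them those of Ssr4, Sec61b and Dpm3, held none. Sec61b and Dpm3, like Srpr, had the highest level per length of their role groups.

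RefSeq promoter windows of 300 bases were matched for 29 of the 39 genes, and the same motifs were counted on both strands in these, in the windows of all 27025 genes of the table and in those of 10167 genes tested in these libraries. Srp19, Srp68, Sec61a1, Tram1, Ssr2, Spcs3, Sec11c, Ostc, Tusc3 and Alg2 had no entry. The CCAAT box stood in a window of 16 of the 29 genes (55.2%), of 41.1% of all genes and of 42.6% of tested genes. The word CCACG stood in 19 of 29 (65.5%), in 35.5% of all and in 51.8% of tested genes. Both together stood in 13 of 29 (44.8%), in 13.3% of all and in 20.0% of tested genes. The 13 were Srp9, Srpr, Sec63, Ssr3, Spcs2, Rpn1, Dad1, Ddost, Stt3a, Stt3b, Krtcap2, Dpm1 and Ganab. The full ER stress response element, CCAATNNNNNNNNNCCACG, was in none of the 29, in 0.137% of all and in 0.157% of tested genes. ERSE-II was in 1 of 29 (Krtcap2), in 0.0444% of all and in 0.0885% of tested genes, and TGACGTG in 2 of 29 (Mogs and Srpr), in 2.22% of all and in 3.31% of tested genes. Both long elements contain the CCAAT box, read as ATTGG on the other strand, and the word CCACG, so that their matches are also counted under the short words. A match here describes letters in a window and not a bound site.

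The 4 libraries held 30436845 and 29249270 counts (CD63 high replicates 1 and 2) and 32953539 and 35003307 counts (CD63 low replicates 1 and 2), so that 3 counts in a library correspond to 0.0857 to 0.103 CPM (counts per 1000000). Levels below are CPM scaled by the trimmed mean of M-values (TMM) unless they are said to be sums on total counts. Cd63 itself stood at 1974 and 2077 CPM in CD63 high and at 1186 and 1120 CPM in CD63 low libraries, a log2 fold change of 0.81 with a standard error (SE) of 0.19 and an adjusted p of 0.0484 (quasi-likelihood test of edgeR, adjusted over all genes tested after Benjamini and Hochberg). Insulin (Ins1 and Ins2) accounted for 49.0% and 52.2% of the CD63 high and 56.4% and 48.7% of the CD63 low counts. Beta cell markers were abundant in both sorts, 2 of 9 were called lower in CD63 high libraries (Mafa and Slc2a2) and none was called higher. Markers of other islet cells were called higher in CD63 high libraries, 2 of 7 tested alpha cell markers, all 3 tested delta cell markers and all 3 gamma cell markers. Their summed levels, in CPM of total counts, were for alpha cells 5562 and 5771 in the CD63 high sort and 423 and 565 in the CD63 low sort. For delta cells they were 465 and 842 (CD63 high) against 67.6 and 48.7 (CD63 low), and for gamma cells 2403 and 3894 (CD63 high) against 515 and 310 (CD63 low). Of macrophage markers 9 of 10 were called higher (CD63 high sums 170 and 604 CPM, CD63 low sums 24.7 and 46.4 CPM), of acinar markers 3 of 9 tested (CD63 high 935 and 1310 CPM, CD63 low 23.1 and 351 CPM) and of duct markers 1 of 4 tested (CD63 high 2599 and 1292 CPM, CD63 low 635 and 747 CPM). No endothelial or fibroblast marker was called among 2 tested of each list, and Amy2a5, Cftr and Cdh5 were at 0 counts in every library. The part of these other cells in the values of the 39 genes was not tested. In such bulk libraries a change in the number of cells of a type and a change in RNA per cell cannot be told apart.

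None of the 39 genes was called higher or lower in CD63 high libraries at an adjusted p under 0.05. Over all genes tested, 331 were called higher, or 2.50%, and 38 lower, or 0.287%. An unadjusted p under 0.05 was given to 3 of the 39 genes by edgeR (Sec11c, Krtcap2 and Ssr4), and to 14.9% of all genes tested. DESeq2's Wald test and limma-voom also called none of the 39, and each gave 5 of them an unadjusted p under 0.05. Of the log2 fold changes 24 lay above 0 and 15 below, with a median of 0.08, against a median of -0.01 over all genes tested. The 2 CD63 high libraries both lay above both CD63 low libraries for 14 of the 39 genes, a pattern that 23.8% of all genes showed, and both lay below for 1, Srp54a, a pattern that 22.2% of all genes showed. For the remaining 24 genes the groups overlapped.

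**Figure D1:**
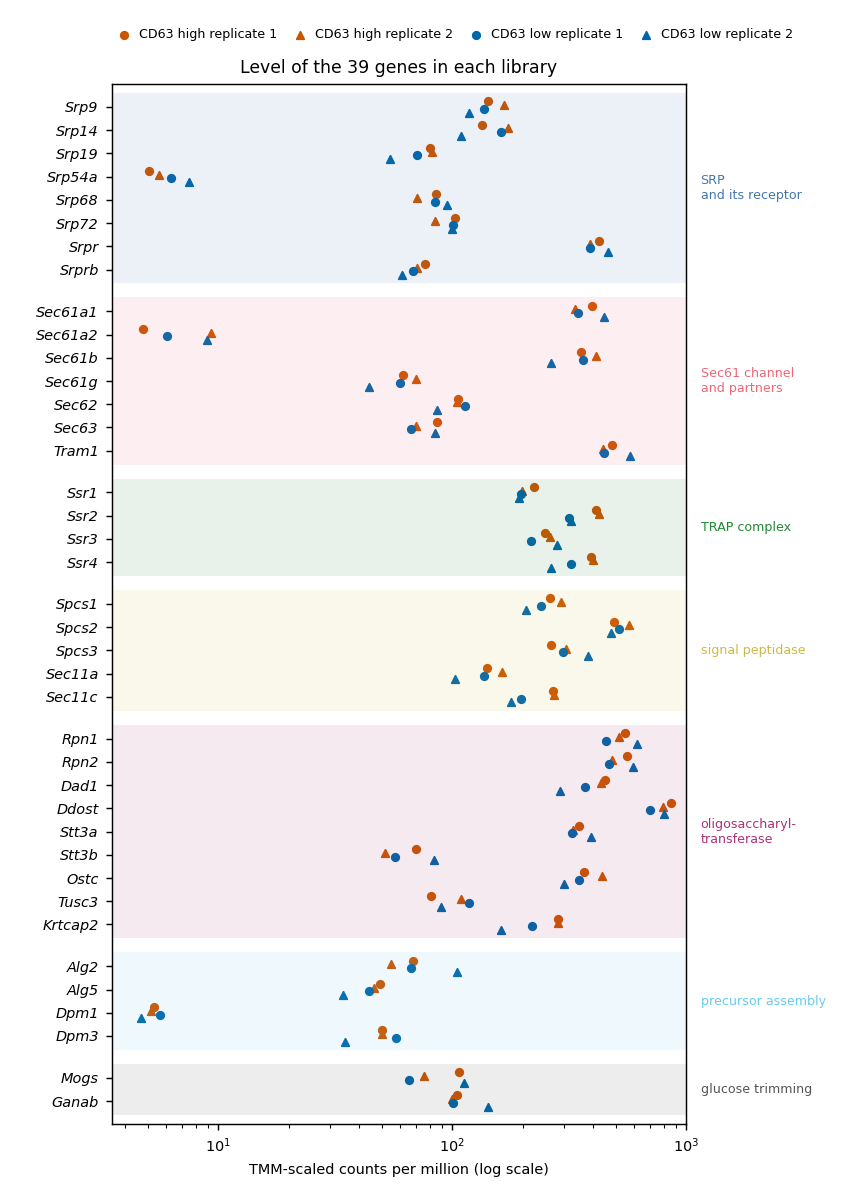
Level of each of the 39 genes in each library, as TMM-scaled CPM on a log axis, by role group. Orange marks the 2 CD63 high libraries and blue the 2 CD63 low libraries, circles replicate 1 and triangles replicate 2. The symbols of both sorts lie close together for most genes, and only Srp54a, Sec61a2 and Dpm1 lie far to the left, at 4.70 to 9.32 CPM.

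The fit gave intervals for these fold changes, which rest on the spread between 2 libraries a sort. That spread may be technical. The SEs of the log2 fold changes ran from 0.19 to 0.38 with a median of 0.21. The 95% intervals of 36 of the 39 genes lay wholly within a 2-fold difference either way. The 3 exceptions were Srp54a, with a lower bound of -1.09, Alg2, with a lower bound of -1.02, and Krtcap2, with an upper bound of 1.04. The intervals, unadjusted for the number of genes, excluded 0 for Sec11c (0.12 to 0.95), Krtcap2 (0.11 to 1.04) and Ssr4 (0.0019 to 0.87). The median size of the log2 fold change was 0.19 over the 39 genes, 0.30 over all genes tested and 0.23 over the 3100 genes whose average log2 CPM was 5 or more, a class that held 36 of the 39. In that class 83 genes, or 2.68%, were called. Between libraries of 1 sort, the median size of the log2 difference over the 39 genes was 0.16 for CD63 high and 0.36 for CD63 low. A fold change sets 2 libraries against 2 and these differences set 1 library against 1, so their sizes are not directly comparable.

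**Figure D2:**
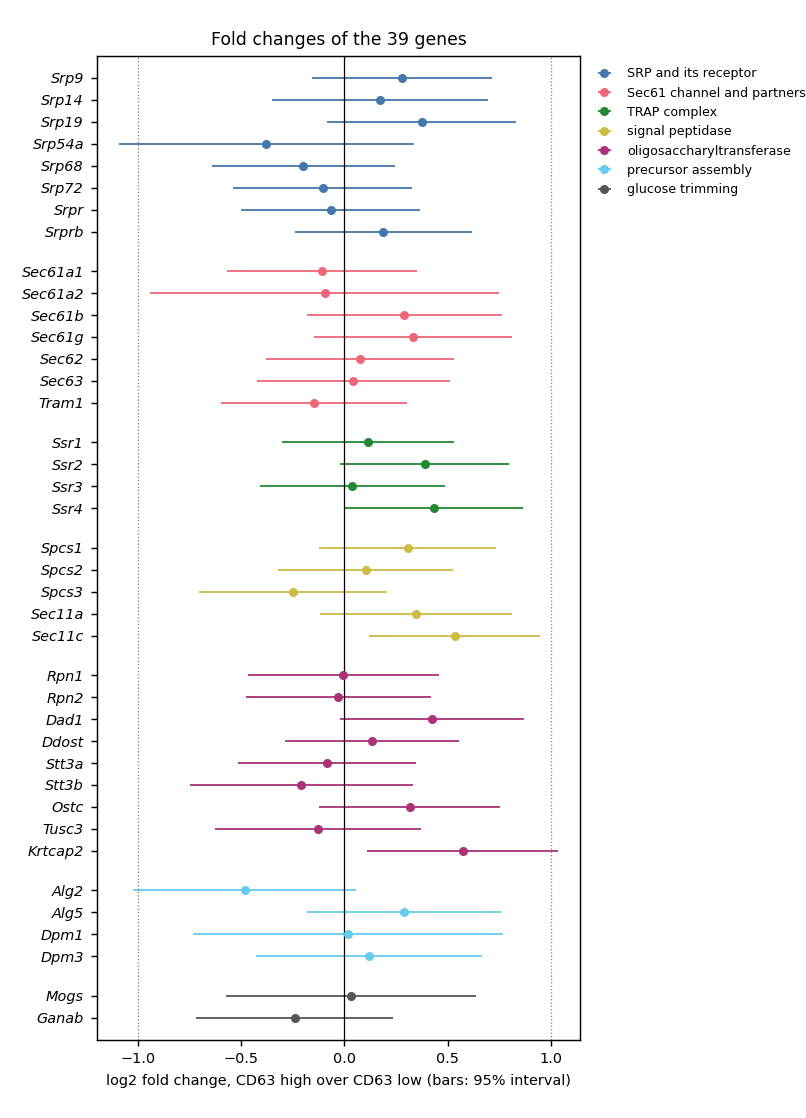
Log2 fold change, CD63 high over CD63 low, of each of the 39 genes with its 95% interval, by role group. Positive values are higher in CD63 high libraries, and dotted lines mark a 2-fold difference either way. Sec11c, Krtcap2 and Ssr4 have intervals above 0, and all others cross it.

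As a group the genes were highly expressed in both sorts. Summed over the 39 they accounted for 0.945% and 0.864% of the CD63 high and 0.758% and 0.965% of the CD63 low counts. Leaving out insulin counts, the shares were 1.85% and 1.81% of the CD63 high and 1.74% and 1.88% of the CD63 low counts, so that the groups overlapped on both scales. On TMM-scaled CPM, the scale of the fit, the sums were 9176 and 9131 in the CD63 high sort and 8236 and 8670 in the CD63 low sort, which did not overlap. With each gene's mean CPM divided by its deposited exon length in kilobases, 28 of the 39 lay above the 90th percentile of all genes tested and 14 above the 98th. The 3 below the 50th percentile were Srp54a (34.9), Sec61a2 (41.7) and Dpm1 (25.8). All comparisons of levels between genes below are on this scale of CPM per kilobase. The deposited length covers all annotated exons of a gene and can exceed that of its transcripts. Rankings and ratios per length therefore depend on the annotation.

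Of the 8 genes of SRP and its receptor, 4 had log2 fold changes above 0 and 4 below, with a median of 0.05 and none called. Srpr, the α subunit of the receptor, had the highest level of the group per length at 124 CPM per kb, closely followed by Srp14, which with Srp9 forms the domain that slows the ribosome, at 121 CPM per kb. Srpr stood at 425 and 387 CPM in CD63 high and at 386 and 464 CPM in CD63 low libraries and a log2 fold change of -0.07 (SE 0.20). The lower value of each sort lay at nearly the same level, and the groups overlapped. Srp19, which joins the particle's RNA to Srp54, had the smallest p of the group. It stood at 80.2 and 82.1 CPM in CD63 high and at 70.9 and 54.3 CPM in CD63 low libraries, a log2 fold change of 0.37 (SE 0.21) with an adjusted p of 0.450 in edgeR. Both CD63 high values of Srp19 lay above both CD63 low values, but its CD63 low libraries differed from each other by more than CD63 low replicate 1 differed from the CD63 high ones.

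Srp54a, which encodes the GTPase subunit that binds the signal peptide, was the lowest of the group at 1.15 CPM per kb (chromosome 12, 55080262 to 55115367, mm10). Its values were 5.07 and 5.56 CPM in CD63 high and 6.30 and 7.52 CPM in CD63 low libraries, a log2 fold change of -0.38 (SE 0.32). It was the 1 gene of the set whose CD63 high libraries both lay below both CD63 low libraries. The mouse genome holds near-identical copies of this gene, Srp54b and Srp54c, and reads matching more than 1 place were not counted, so its level is uncertain. Srp54b, with 0 and 3 counts in the CD63 high sort and 3 and 1 counts in the CD63 low sort, was not tested, and Srp54c had a log2 fold change of -0.04. The other 4 genes, Srp9, Srp68, Srp72 and the receptor's membrane anchor Srprb, had log2 fold changes of -0.20 to 0.28. The coding exons of Srprb are overlapped wholly by those of another annotated gene name, Gm20425, so that its value too depends on how reads were assigned.

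The Sec61 channel and its partners were split likewise, with 4 of 7 above 0, a median log2 fold change of 0.04 and none called. Sec61b, the small β subunit, was the most abundant of the group at 273 CPM per kb, above 99.6% of all genes tested. It stood at 354 and 410 CPM in CD63 high and at 361 and 264 CPM in CD63 low libraries, with overlapping groups and a log2 fold change of 0.29 (SE 0.21, adjusted p of 0.600 in edgeR). Sec61g, the γ subunit, had the smallest p and the largest fold change of the group. It stood at 61.7 and 69.6 CPM in CD63 high and at 60.1 and 44.3 CPM in CD63 low libraries, a log2 fold change of 0.33 (SE 0.22, adjusted p of 0.536 in edgeR). CD63 low replicate 1 lay just under the CD63 high values and replicate 2 well below them. Tram1, which helps nascent chains into the membrane, lay at the other end with -0.15 (SE 0.20) on the log2 scale. Its values were 481 and 442 CPM in CD63 high and 446 and 576 CPM in CD63 low libraries, and the groups overlapped. Sec62 and Sec63, which serve short and slow substrates, had log2 fold changes of 0.08 and 0.04.

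The pore itself was read almost wholly from 1 of its paralogs. Sec61a1 stood at 396 and 335 CPM in CD63 high and at 343 and 444 CPM in CD63 low libraries, while Sec61a2 stood at 4.76 and 9.32 CPM in CD63 high and at 6.06 and 8.94 CPM in CD63 low libraries. Per length, Sec61a1 exceeded Sec61a2 by a factor of 56.5 and 24.4 in the CD63 high sort and of 38.4 and 33.8 in the CD63 low sort. The range within the CD63 high sort thus enclosed both CD63 low values, and the log2 difference of the ratio between sorts was 0.04.

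All 4 TRAP genes had log2 fold changes above 0, with a median of 0.25, and none was called. Their summed level was 1273 and 1286 CPM in CD63 high and 1051 and 1059 CPM in CD63 low libraries, and this sum did not overlap between sorts. Of single genes tested, 23.8% lay above without overlap and 22.2% below. Ssr2, Ssr3 and Ssr4 have coding sequences under 600 bases. Of all such genes at an average log2 CPM of 5 or more, 79.0% had log2 fold changes above 0. Ssr4, the δ subunit (chromosome X, 73787028 to 73790830), had 392 and 401 CPM in CD63 high and 323 and 264 CPM in CD63 low libraries. The fitted difference was 1.35-fold, a log2 fold change of 0.43 (SE 0.20) and an adjusted p of 0.332 in edgeR. Ssr2, the β subunit, was the most abundant of the complex at 197 CPM per kb. It had 409 and 425 CPM in CD63 high and 317 and 320 CPM in CD63 low libraries, a log2 fold change of 0.39 (SE 0.19, adjusted p of 0.366 in edgeR). Its groups did not overlap and the gap between them was several times the difference within either. Ssr1, the α subunit and the lowest of the complex at 19.4 CPM per kb, had 223 and 198 CPM in CD63 high and 196 and 193 CPM in CD63 low libraries, so that CD63 high replicate 2 lay barely above the CD63 low libraries. Ssr3, the γ subunit, had 249 and 262 CPM in CD63 high and 216 and 281 CPM in CD63 low libraries and a log2 fold change of 0.04.

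Signal peptidase had 4 of 5 log2 fold changes above 0, a median of 0.31 and none called. Sec11c, 1 of its 2 alternative catalytic subunits, had the smallest adjusted p of the whole set, 0.192 in edgeR. It stood at 268 and 272 CPM in CD63 high and at 196 and 177 CPM in CD63 low libraries, a 1.45-fold difference in the fit with a log2 fold change of 0.53 (SE 0.19). Values within each sort were close and the groups did not overlap. Sec11c was called in 1 alternative, a crossed pairing of libraries chosen after seeing the data. Sec11a, the other catalytic subunit, stood at 140 and 163 CPM in CD63 high and at 136 and 103 CPM in CD63 low libraries, with a log2 fold change of 0.35 (SE 0.21) and an adjusted p of 0.502 in edgeR. Spcs1, the most abundant subunit per length at 161 CPM per kb, had 260 and 291 CPM in CD63 high and 238 and 207 CPM in CD63 low libraries. Spcs3, a subunit needed for cleavage, was the exception in direction. It had 264 and 306 CPM in CD63 high and 296 and 381 CPM in CD63 low libraries, a log2 fold change of -0.25 (SE 0.21) with overlapping groups. Spcs2 had a log2 fold change of 0.10.

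The summed level of oligosaccharyltransferase, the group with the most genes, was 3556 and 3431 CPM in CD63 high and 3054 and 3320 CPM in CD63 low libraries. These TMM-scaled sums did not overlap, whereas on total counts they were 3660 and 3248 CPM in CD63 high and 2811 and 3694 CPM in CD63 low libraries and overlapped. Of its 9 genes 4 had log2 fold changes above 0 and 5 below, the median was -0.0042, and none was called. Ddost, a subunit of the membrane core (chromosome 4, 138304730 to 138312628), was the most abundant gene of all 39 at 372 CPM per kb, above 99.7% of all genes tested. It had 856 and 796 CPM in CD63 high and 701 and 805 CPM in CD63 low libraries, a log2 fold change of 0.13 (SE 0.19), and the groups overlapped. The large scaffold subunits Rpn1 and Rpn2 had log2 fold changes of -0.0042 and -0.03.

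The largest fold changes of the complex belonged to 2 of its small subunits. Krtcap2 is a subunit of the form of the enzyme built around Stt3a (chromosome 3, 89245966 to 89249906), and its promoter carried the ERSE-II match shown above. It had 283 and 283 CPM in CD63 high and 220 and 161 CPM in CD63 low libraries. The CD63 high libraries were almost equal and the CD63 low libraries both lay below them, with a wide gap between those 2. The fitted difference was 1.49-fold (95% interval 1.08 to 2.05), the log2 fold change 0.57 (SE 0.21) and the adjusted p 0.212 in edgeR. Without CD63 low replicate 1 the log2 fold change of Krtcap2 was 0.81 with an adjusted p of 0.0483, and without CD63 low replicate 2 it was 0.38 with an adjusted p of 0.604. Dad1, which holds the core together and whose loss leads to cell death, had 447 and 432 CPM in CD63 high and 368 and 287 CPM in CD63 low libraries. Its log2 fold change was 0.42 (SE 0.20) with an adjusted p of 0.364 in edgeR. Ostc, which like Krtcap2 belongs to the Stt3a form, had 366 and 438 CPM in CD63 high and 347 and 299 CPM in CD63 low libraries and a log2 fold change of 0.32. Both CD63 high libraries lay above both CD63 low libraries for all 3 of these small subunits, and the sorts overlapped for the other 6 genes of the complex. Over all genes tested 23.8% lay above without overlap and 22.2% below.

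The catalytic subunits gave a different picture. Stt3a, which glycosylates chains as they are made, stood at 348 and 327 CPM in CD63 high and at 324 and 392 CPM in CD63 low libraries, a log2 fold change of -0.08 (SE 0.20). Stt3b, which acts on sites that were skipped, was the lowest subunit at 15.5 CPM per kb. It stood at 70.1 and 51.6 CPM in CD63 high and at 56.9 and 83.8 CPM in CD63 low libraries, a log2 fold change of -0.21 (SE 0.24). Tusc3, an oxidoreductase subunit of the Stt3b form, stood at 80.8 and 109 CPM in CD63 high and at 118 and 89.1 CPM in CD63 low libraries. Its paralog Magt1, which is not among the 39, stood at 116 and 117 CPM in CD63 high and at 126 and 119 CPM in CD63 low libraries.

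Ratios of alternative subunits did not separate the sorts. Per exon length, Stt3a stood above Stt3b by a factor of 2.35 and 2.99 in CD63 high and of 2.69 and 2.21 in CD63 low libraries. The size of this factor depends on deposited exon lengths of 8948 bases for Stt3a and 4221 for Stt3b. Their longest coding lengths are 2115 and 2469 bases. Sec11a stood to Sec11c as 0.350 and 0.399 in CD63 high and as 0.464 and 0.387 in CD63 low libraries, so that Sec11c was the more abundant catalytic subunit in every library. Tusc3 stood to Magt1 as 0.949 and 1.26 in CD63 high and as 1.27 and 1.02 in CD63 low libraries. Over 4 such ratios, Sec61a1 to Sec61a2 included, exact two-sided permutation tests gave p of 0.667 to 1, or 0.889 to 1 after Benjamini-Hochberg adjustment, where the smallest p that 2 libraries against 2 allow is 0.33.

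Among the 4 genes that assemble the sugar precursor, 3 had log2 fold changes above 0, the median was 0.07 and none was called. Alg2, a mannosyltransferase of the early steps (chromosome 4, 47465067 to 47474333), had the lowest log2 fold change of the 39 genes, -0.48 (SE 0.24, adjusted p of 0.400 in edgeR). It had 67.6 and 54.8 CPM in CD63 high and 66.6 and 104 CPM in CD63 low libraries. CD63 low replicate 1 lay among the CD63 high values and CD63 low replicate 2 alone stood above them. Without CD63 low replicate 1 the log2 fold change of Alg2 was -0.77 with an adjusted p of 0.0492, and without CD63 low replicate 2 it was -0.11. Alg2 lies head to head with Sec61b, with 324 bases between the outer exons of the pair, and the log2 fold changes of these neighbours were -0.48 for Alg2 and 0.29 for Sec61b.

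Alg5, which charges dolichol with glucose, had 49.0 and 46.4 CPM in CD63 high and 43.9 and 34.2 CPM in CD63 low libraries, a log2 fold change of 0.29 (SE 0.21). Dpm3, the anchor of dolichol-phosphate mannose synthase and the most abundant gene of this group per length at 52.2 CPM per kb, had 49.95 and 50.02 CPM in CD63 high and 57.2 and 34.9 CPM in CD63 low libraries. The CD63 high values of Dpm3 lay between the CD63 low values. Dpm1, the catalytic subunit of the same enzyme, had 5.30 and 5.16 CPM in CD63 high and 5.64 and 4.70 CPM in CD63 low libraries. In the deposited annotation 99.4% of its coding bases lie under exons of another gene name, Gm20716, and a read falling on both is counted for neither. The level of Dpm1 was 0.694 CPM per kb against 52.2 for its partner Dpm3, and it counts only reads outside the shared bases.

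Both glucosidases overlapped between sorts. Mogs, which removes the outermost glucose, had 106 and 75.6 CPM in CD63 high and 65.1 and 113 CPM in CD63 low libraries and a log2 fold change of 0.03 (SE 0.27). The highest and lowest values both belonged to CD63 low libraries. Ganab, the catalytic subunit that removes the next glucoses, had 105 and 99.9 CPM in CD63 high and 101 and 142 CPM in CD63 low libraries, a log2 fold change of -0.24 (SE 0.22, adjusted p of 0.683 in edgeR).

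Further genes of the same pathway were not called either. Of 85 genes on 8 related lists, 84 were tested and edgeR called none higher or lower, nor did DESeq2 or limma-voom. An unadjusted p under 0.05 was given to 4 of the 84 by edgeR and to 5 by each of the other tools. Of their log2 fold changes 57 lay above 0 and 27 below, with a median of 0.13. Over all 13241 genes tested, edgeR called 2.50% higher and 0.287% lower and gave 14.9% an unadjusted p under 0.05. There 6440 log2 fold changes lay above 0 and 6801 below, with a median of -0.01. Tmem208, a targeting factor independent of SRP, had 79.0 and 81.0 CPM in CD63 high and 58.0 and 53.8 CPM in CD63 low libraries, a log2 fold change of 0.52 with an adjusted p of 0.218 in edgeR. Alg3, a mannosyltransferase of the late precursor, had 45.5 and 43.6 CPM in CD63 high and 28.2 and 32.3 CPM in CD63 low libraries, a log2 fold change of 0.56 with an adjusted p of 0.220 in edgeR. Both CD63 high libraries lay above both CD63 low libraries for Tmem208 and for Alg3.

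Edem1, which directs misfolded glycoproteins to degradation, had 226 and 184 CPM in CD63 high and 110 and 166 CPM in CD63 low libraries, a log2 fold change of 0.57 with an adjusted p of 0.285 in edgeR. Without CD63 low replicate 2 the log2 fold change of Edem1 was 0.91. In the crossed pairing of libraries, chosen after seeing the data, it was 0.59 with an adjusted p of 0.0296 in edgeR. Edem1 was the 1 gene of the 84 called in that pairing. Among 13 factors and targets of the unfolded protein response, 8 log2 fold changes lay above 0 and 5 below, with a median of 0.17. Ddit3, a transcription factor of prolonged ER stress, had the smallest p of these, with 37.9 and 30.8 CPM in CD63 high and 23.7 and 20.6 CPM in CD63 low libraries and an adjusted p of 0.194 in edgeR. Hspa5, the main ER chaperone, had 1902 and 1456 CPM in CD63 high and 1325 and 2062 CPM in CD63 low libraries, so that the CD63 low values enclosed the CD63 high ones.

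The smallest p of the remaining lists was that of Mmgt1 for the 10 genes of the ER membrane complex, with a log2 fold change of -0.55 and an adjusted p of 0.361 in edgeR. It was that of Tmem147 for 10 further translocon partners, with 0.38 and 0.399, and that of Ost4 for 3 further oligosaccharyltransferase subunits, with 0.33 and 0.556. The 7 genes that insert tail-anchored proteins had a median log2 fold change of -0.03 and adjusted p-values of at least 0.814 in edgeR.

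Within the set, fold change varied with the length of the coding sequence. The 14 genes with a longest coding sequence under 600 bases, a limit chosen after the values were seen, had a median log2 fold change of 0.31, and 13 of them lay above 0, with Spcs3 as the exception. The 25 genes of 600 bases or more had a median of -0.03, and 11 of them lay above 0. Krtcap2, Dad1, Ssr4, Ssr2, Srp19, Sec61g, Ostc, Spcs1, Sec61b and Srp9 all belong to the short class, whereas Sec11c, with 618 bases, lies just beyond the limit. Across the 39 genes the log2 fold change and log10 coding length had a Pearson's r of -0.67 and a Spearman's rho of -0.69. The points share the same 4 libraries and are not independent, so no p is given.

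The same relation was present in the whole table. Of all genes at an average log2 CPM of 5 or more, the 653 with a short coding sequence had a median log2 fold change of 0.23 and 79.0% of them lay above 0. The 2420 longer ones had a median of -0.05 and 43.7% of them lay above 0. Across these 3073 genes Pearson's r was -0.33 and Spearman's rho -0.47. The share of the 14 short genes of the set that lay above 0 thus stood beside a share of 79.0% over short genes in general.

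**Figure D3:**
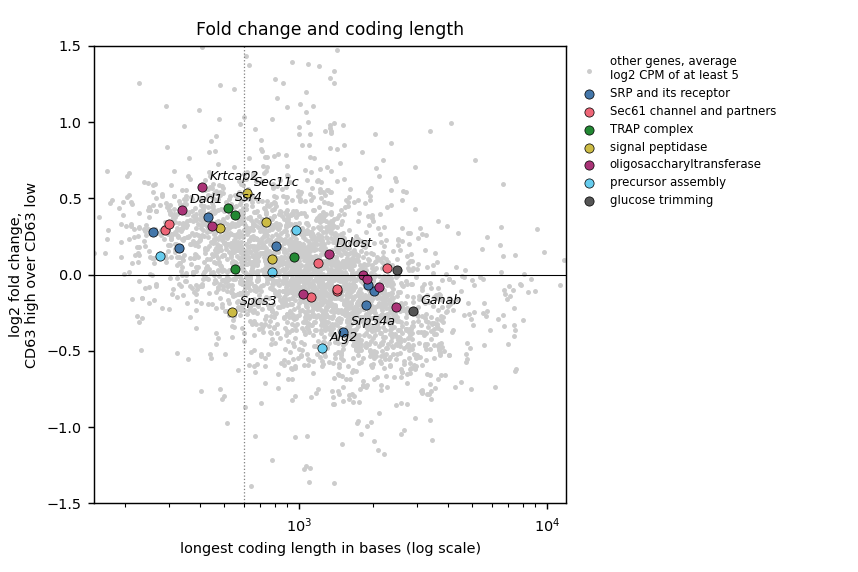
Log2 fold change, CD63 high over CD63 low, against the longest coding length in bases on a log axis. Coloured points are the 39 genes by role group and grey points 3037 other genes at an average log2 CPM of 5 or more, of which 51 lie outside the axes. The dotted line marks 600 bases. Short genes of the set lie above 0 except Spcs3, and the grey cloud slopes down in the same way.

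Coding length went with differences between libraries of 1 sort as well. Among the 14 short genes the median log2 difference of CD63 high replicate 2 minus replicate 1 was 0.12, with 12 above 0, and that of CD63 low replicate 1 minus replicate 2 was 0.32, with 11 above 0. Among the 25 longer genes these medians were -0.10, with 6 above 0, and -0.26, with 10 above 0. All genes of that abundance showed medians of 0.18 and 0.35 when short and of -0.03 and -0.07 when longer. CD63 high replicate 2 and CD63 low replicate 1 also had the larger insulin shares and the lower TMM factors, 0.947 and 0.921, while CD63 high replicate 1 and CD63 low replicate 2 had 1.03 and 1.11. The part of library composition or RNA quality in the fold changes of short genes was not tested.

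Differences within the sorts also went together. The difference between the CD63 high libraries and that between the CD63 low libraries, which have no library in common, had a Pearson's r of 0.36 and a Spearman's rho of 0.50 across the 39 genes. Over the 36 at an average log2 CPM of 5 or more the values were 0.67 and 0.63, and over the 3100 genes of that abundance 0.25 and 0.49. Of the 39 genes 13 were higher in CD63 high replicate 2 and in CD63 low replicate 1 than in the other library of the sort, 13 were lower in both, and the rest differed in direction. Sec61a2, at under 10 CPM in every library, lay farthest from this trend, with the higher level in replicate 2 of both sorts. The order in which libraries were subtracted was chosen after their values were seen, and replicates have no order of their own. CD63 high replicate 2 and CD63 low replicate 1 share the number 2 in the file headers. The part of a shared source in these differences was not tested.

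**Figure D4:**
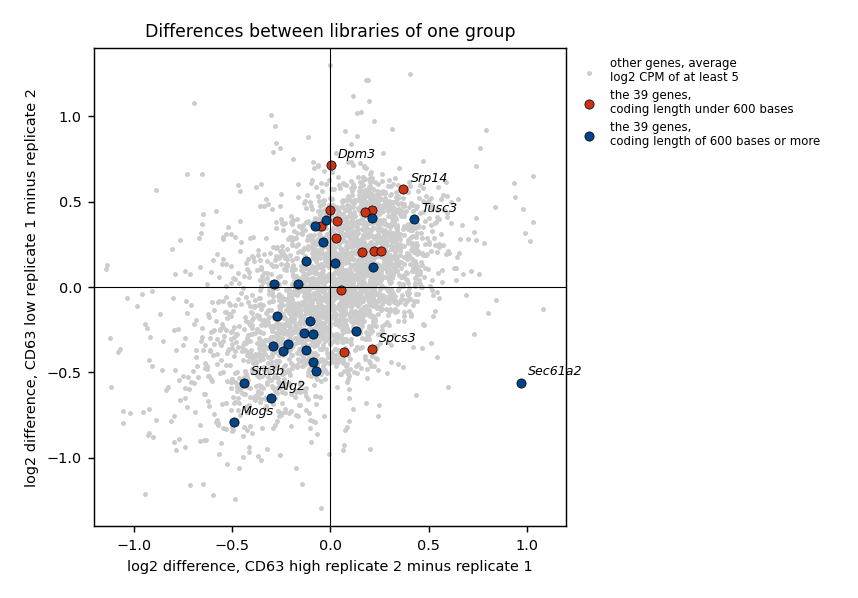
Log2 difference between the 2 libraries of each sort, for the CD63 high libraries (replicate 2 minus replicate 1) and the CD63 low libraries (replicate 1 minus replicate 2). Red and blue points are the 39 genes with a coding length under 600 bases and of 600 bases or more, and grey points 3037 other genes at an average log2 CPM of 5 or more, of which 25 lie outside the axes. Short genes gather in the upper right and many longer ones in the lower left, among them Mogs, Stt3b and Alg2.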

How the data were processed

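Poly(A) RNA of sorted beta cells was amplified by SMARTer v4 and sequenced from Nextera XT libraries, per the labels' protocols. The file headers number the CD63 high libraries 1 and 2 and the CD63 low libraries 2 and 3, and the replicate numbers here are those of the titles. CD63 high replicate 2 and CD63 low replicate 1 thus share the header number 2. What the header numbers stand for is not stated. The authors deposited raw counts, 1 table a library, made with featureCounts 1.6.2 per the file headers, counting read pairs by gene name with no strand option and no option for reads with several alignments. The submitters' processing notes name STAR 2.6.0c and mm10. Reads on overlapping or antisense genes and on near-identical copies are therefore lost or cannot be told apart, and PCR copies can count as separate reads, so floors cover counting error only. The depth of each library was 29249270 to 35003307 counts. Exon lengths and coordinates are those of the deposited tables, with coordinates counted from 1.

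All 31017 gene names were passed through edgeR 4.0.16 (R 4.3.3), using filterByExpr at a minimum count of 10 and a minimum total of 15, TMM scaling, glmQLFit and glmQLFTest, with CD63 sort as the only term and Benjamini-Hochberg adjustment over the 13241 genes left. The biological coefficient of variation was 0.264. The 95% intervals use the SE and the fit's degrees of freedom. DESeq2 1.42.0, limma 3.58.1 and the alternatives of the closing section were run on the same counts. Counts within a sort differed beyond sampling noise (chi-square per degree of freedom 37.3 for CD63 high and 73.7 for CD63 low), so each was counted as a library of its own. Coding lengths are the longest in the GENCODE M21 basic annotation. The fit was also run on simulated counts with 200 genes changed, independent libraries and the same variability for every gene. Such counts lack the shared differences between libraries described above, so the simulation cannot show how the fit behaves under them.

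The 39 genes and all lists were chosen with earlier results of these data known. Named genes are, per role group, those with the smallest p, the highest and lowest level per length and the largest fold change either way, and both genes of each paralog pair. Other pathway genes are the smallest p of their list. Hspa5, the neighbours Alg2 and Sec61b and the remaining small subunits were named after their values were seen.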

Additional observations from a re-analysis of the deposited data

How the results depend on the processing

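All genes called numbered 369 (331 higher, 38 lower), against 67 with library size alone as scaling, 940 with no filter on low counts, 686 in DESeq2's Wald test, 616 with the replicate number as a block and 942 with crossed pairs as a block. Leaving out 1 library in turn gave 450 to 769. No label ties libraries with the same replicate number. Their deviations from the group means had a correlation of -0.101 over 13241 genes. With 2 libraries a sort, any other difference between libraries enters this value too, so it cannot show whether libraries were paired. None of the 39 genes was called in the fit with the replicate block. The crossed pairing, chosen after seeing the data, called 2 of the 39 higher, Krtcap2 and Sec11c, and 0 lower. It joins CD63 high replicate 2 with CD63 low replicate 1, which share the number 2 in the file headers. The libraries of its other pair are numbered 1 and 3 there. Without 1 library, 0 to 1 of the 39 were called higher and 0 to 1 lower. The median log2 fold change of the 39 genes ran from 0.05 to 0.13 over the alternatives. Of 507 values of single genes under 13 alternatives, 466 kept their direction and side of the threshold and 37 changed sign, of which 27 came from leaving out 1 library and 13 of these from leaving out CD63 low replicate 2. Rpn1 was 0.0020 with DESeq2's size factors and in DESeq2's Wald test, 0.0035 with library sizes without insulin, 0.0098 in limma-voom and 0.012 with either block. With library size alone Sec63 was -0.0064, Ssr3 -0.021, Dpm1 -0.0099 and Mogs -0.035. Leaving out 1 library turned the sign of 19 genes, within -0.66 to 0.31 for Sec61a2, -0.12 to 0.24 for Sec63, -0.36 to 0.082 for Tusc3, -0.31 to 0.50 for Mogs, -0.068 to 0.48 for Srp14, -0.25 to 0.030 for Srp72, -0.29 to 0.11 for Sec61a1, -0.0100 to 0.21 for Spcs2, -0.21 to 0.25 for Rpn1, -0.19 to 0.17 for Rpn2, -0.14 to 0.26 for Ssr3, -0.20 to 0.089 for Srpr, -0.091 to 0.28 for Sec62, -0.32 to 0.066 for Tram1, -0.22 to 0.076 for Stt3a, -0.47 to 0.11 for Stt3b, -0.091 to 0.15 for Dpm1, -0.18 to 0.51 for Dpm3 and -0.47 to 0.042 for Ganab. A sort left with 1 library is assumed to vary like the other. The causes were not tested. Of the 20 genes that kept their sign, 15 moved by over 1.5 times on the log2 scale when 1 library was left out. The other 5 were Srprb, Ssr2, Ssr4, Spcs1 and Sec11c. Without 1 library the values were 0.18 to 0.44 for Ostc, 0.17 to 0.39 for Srp9 and 0.10 to 0.53 for Sec61b. The direction of the 19 genes is not settled at 2 libraries a sort.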
